A study of Mus musculus with 10 samples.

Results

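The genes described here code for the machinery of mitosis: the kinases that drive it, the spindle checkpoint, the enzymes and guards of sister chromatid separation, kinetochore proteins, kinesin motors, cytokinesis factors and condensin. They are 46 named genes, chosen by their function and matched by symbol, of 55401 genes in the table, and all 46 had a row and were expressed highly enough to test. RNA came from the E14 line, embryonic stem cells of a male mouse embryo. The wild-type group comprised 4 libraries in 2 numbered sets, and the mutant group comprised 6 libraries in 3 numbered sets of cells edited by CRISPR/Cas9 to carry ANKRD11 Y347A, an alanine in place of a tyrosine. Both genotypes are labelled as untreated, each set held 2 libraries, and the labels give neither the nature of a set (clone, culture or batch) nor the number of mutated alleles. ANKRD11 is a large nuclear regulator of transcription, and the series is about its binding to cohesin, the ring complex that holds sister chromatids together.

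In mitosis, duplicated chromosomes are compacted by condensin, captured at their kinetochores by spindle microtubules and held together by cohesin until all are attached. Unattached kinetochores keep the spindle checkpoint active, which blocks the CDC20-bound anaphase-promoting complex (APC/C). Once the block ends, the APC/C marks securin for destruction, separase is freed, and separase cuts cohesin; shugoshins shield cohesin at centromeres until then. Embryonic stem cells divide fast and spend little of each cycle in G1, and they are known for high levels of cell cycle transcripts. Many of these genes are switched on late in the cell cycle through a promoter element called the cell cycle genes homology region (CHR), bound by the DREAM and MYB-MuvB complexes, together with CCAAT boxes bound by the factor NF-Y.

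The promoters of the mitotic genes shared these letters. RefSeq promoter windows on GRCm38.p6, from 250 bases before to 50 bases after each listed start, were at hand for 40 of the 46 genes; Spc24, Smc4, Incenp, Aurkb, Tpx2 and Kif20a had no entry. Letters of the CHR (TTTGAA or TTCGAA, either strand) stood in 31 of the 40 genes (77.5%), against 21.7% of 27025 genes with a window and 16.3% of the genes tested here. The letters CCAAT, on either strand, stood in 29 of the 40 (72.5%), against 41.1% of all genes and 44.1% of genes tested. Both were found in 26 of the 40 genes (65.0%), against 8.6% and 7.2%. A CHR match began within 50 bases of the listed start in 28 of the 40 (70.0%), that is in 68.2% of the genes' 44 windows against 5.3% of all 32851 windows. Each motif was counted by itself, whether or not its letters overlapped the other's, and a match is a description of the sequence, not evidence of binding. The following 30-base stretches, read 5′ to 3′ along the strand of the gene from RefSeq, show the CHR letters, in capitals, in 10 genes of several roles, 4 of them called in the comparison of genotypes. Capitals of TTCAAA are TTTGAA on the other strand. The match in Ncapd2 begins at base -123 from its listed RefSeq start, and the others begin within 50 bases of theirs. The GENCODE start of Ncapd2, at 125191701, differs from the RefSeq start and lies within the stretch shown.
Cenpf (chr1:189688067-189688096, minus strand): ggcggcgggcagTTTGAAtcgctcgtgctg
Bub1 (chr2:127831828-127831857, minus strand): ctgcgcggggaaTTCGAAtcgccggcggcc
Ttk (chr9:83834684-83834713, plus strand): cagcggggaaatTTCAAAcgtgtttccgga
Cdca5 (chr19:6085076-6085105, plus strand): gcaaTTTGAAcgTTTGAAgcagcaaagttc
Prc1 (chr7:80294434-80294463, plus strand): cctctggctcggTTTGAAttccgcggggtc
Top2a (chr11:99024195-99024224, minus strand): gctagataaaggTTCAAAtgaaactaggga
Kif23 (chr9:61946780-61946809, minus strand): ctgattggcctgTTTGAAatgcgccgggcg
Ect2 (chr3:27153822-27153851, minus strand): cgactggattttTTTGAAtcggaggcggca
Hmmr (chr11:40733412-40733441, minus strand): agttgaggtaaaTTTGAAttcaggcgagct
Ncapd2 (chr6:125191692-125191721, minus strand): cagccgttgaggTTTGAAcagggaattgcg

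**Figure D1:**
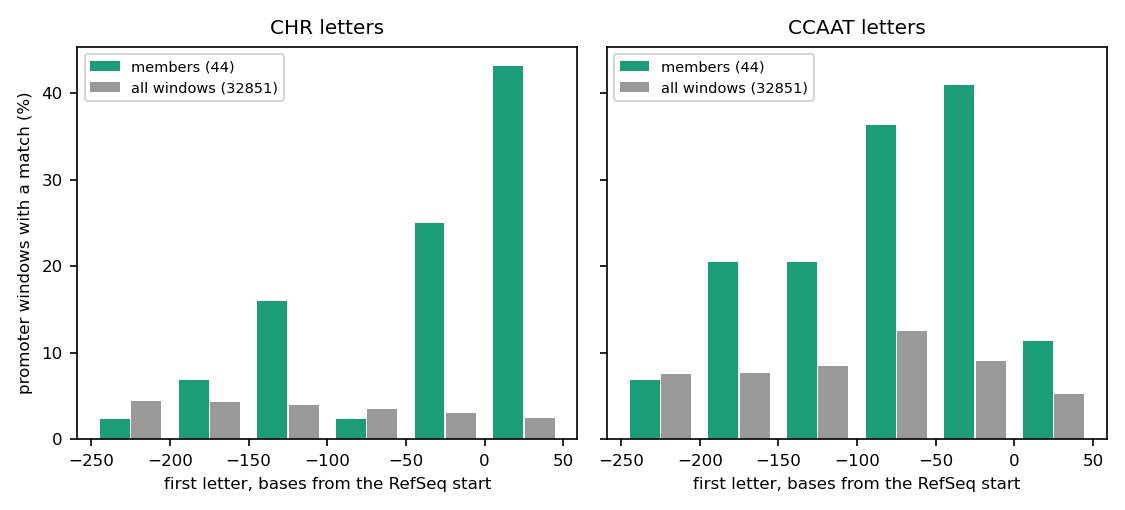
Share of promoter windows (percent, vertical axis) with a match to the CHR letters (left) or to CCAAT (right) in bins of 50 bases by distance from the listed RefSeq start (horizontal axis), for the 44 windows of the mitotic genes and for all 32851 windows. CHR matches were most frequent from the start to 49 bases after it, in 43.2% of the mitotic genes' windows against 2.46% of all windows, and CCAAT was most frequent in the 50 bases before the start, in 40.9% against 9.03%.

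Of the 46 mitotic genes, 8 differed between mutant and wild-type cells, 4 in each direction, and 38 did not pass the test. Pttg1, which encodes securin, was 1.49-fold higher in mutant cells. Ncaph and Ncapd2, which encode non-SMC subunits of condensin I, were 1.38-fold and 1.35-fold higher, and Hmmr, which encodes a spindle assembly factor, was 1.32-fold higher. Ect2, the RhoA activator of cytokinesis, stood at 0.716 of its wild-type level, Kif23, the kinesin of the centralspindlin complex that recruits ECT2, at 0.791, Mad2l1, the checkpoint protein MAD2, at 0.800 and Sgo2a, a shugoshin, at 0.805. The test was limma on log2(TPM + 1) of set means, where TPM are length-scaled abundances that sum to 1000000 in a library, and a gene was called when its Benjamini-Hochberg adjusted p over 12797 tested genes was under 0.05. By this rule 4 genes were higher and 4 lower, 17.4% of the 46, beside 17.5% of all genes tested (6.97% higher and 10.5% lower), so the share called was near that of genes at large. Quantile scaling gave 5 higher and 2 lower, beside 16.5% of all genes tested, and a correction for transcript GC content gave 5 higher and 1 lower, beside 15.9%. The set-mean fit has 3 residual degrees of freedom. Without wild-type set 1 or without wild-type set 2, each of which leaves 1 wild-type set, none of the 8 calls passed, and 1.53% and 0.328% of all genes were called. The log2 fold change of Pttg1 was 0.53 and 0.60 in these fits. Without mutant set 1, the genes higher were 3 and lower 0 (5.11% of all genes called), without mutant set 2 they were 4 and 2 (18.7%), and without mutant set 3 they were 3 and 1 (7.19%).

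In size, the changes of the mitotic genes were small. The median log2 fold change (mutant minus wild type) over the 46 genes was -0.05, beside -0.04 over all genes tested, with 17 genes above 0 and 29 below. No gene moved by more than 1 on the log2 scale, and the median absolute change was 0.12, against 0.21 for all genes tested. That comparison was not matched for expression level. Of the 38 genes not called, 36 had a 95% interval that lay within 0.5 of 0; the exceptions were Cenpe, from -0.09 to 0.77, and Smc2, from -0.50 to 0.01. The 6 mutant libraries did not overlap the 4 wild-type libraries for 15 of the 46 genes, 5 higher and 10 lower, beside 31.8% of all genes tested. Mean wild-type levels ran from 17.2 TPM for Cenpe to 314 TPM for Ube2c with a median of 73.3 TPM, against 15.0 TPM for all genes tested, and the median gene stood at percentile 85.9 of them.

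**Figure D2:**
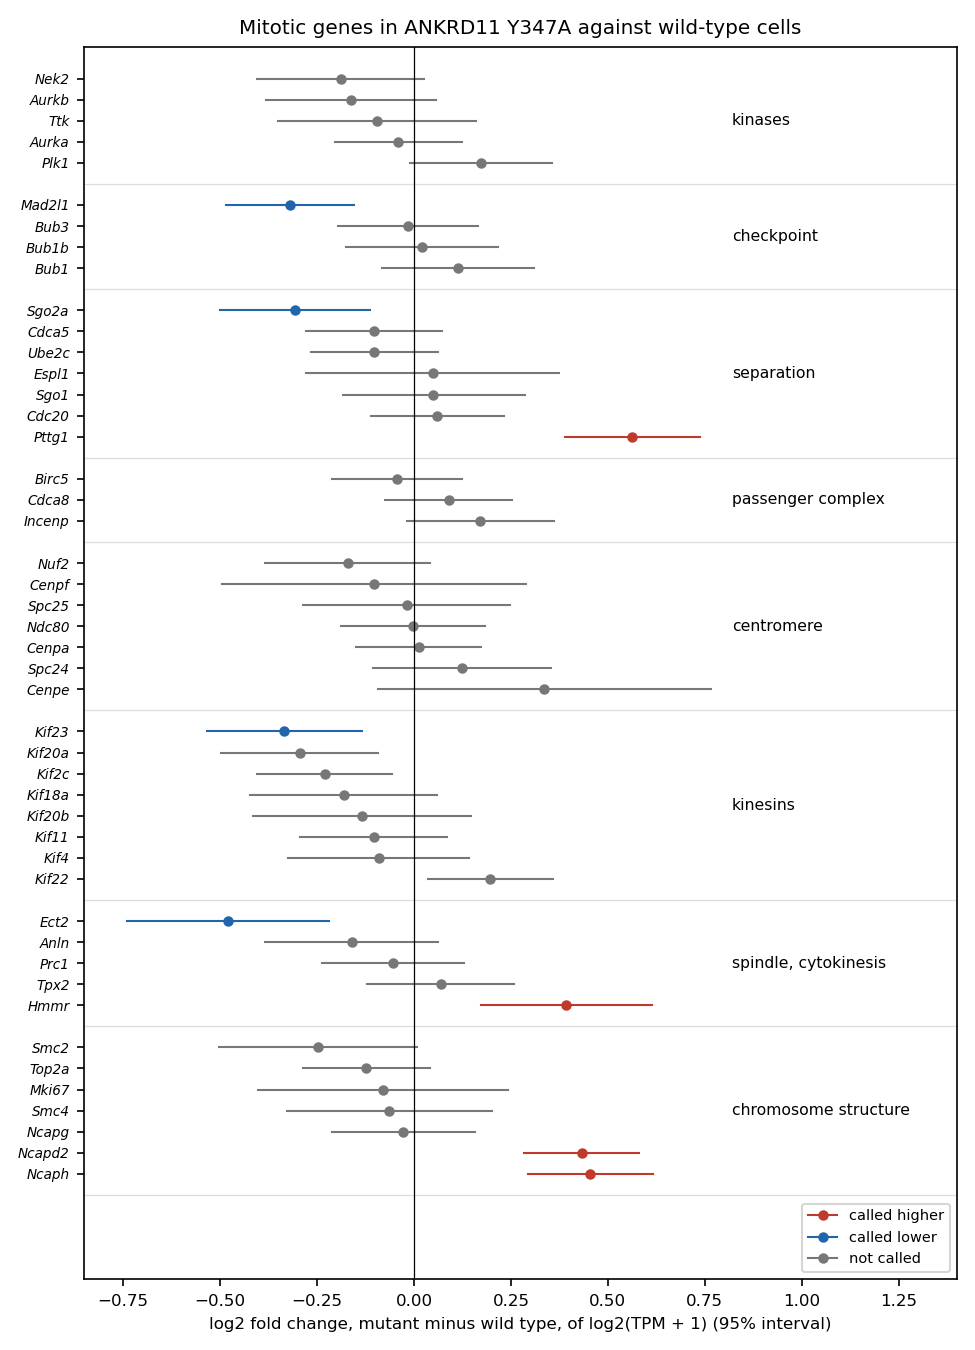
Log2 fold change of each of the 46 mitotic genes (horizontal axis, mutant minus wild type on log2(TPM + 1), point) with its 95% interval (bar), arranged by role. The 4 genes called higher lie between 0.39 and 0.56, the 4 called lower between -0.48 and -0.31, and the intervals of all others but Kif20a, Kif2c and Kif22 include 0.

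These libraries matched stem cells by their markers. A library held 12473 to 12812 genes at 1 TPM or more, each library sums to 1000000 TPM within rounding, and so the depth behind each value is unknown. All 12 pluripotency markers examined exceeded 1 TPM, with sums of 11098 to 11812 TPM in wild-type and 9920 to 11808 TPM in mutant libraries, most of it Dppa5a (means of 8115 and 7350 TPM, not called). Nanog was called lower (543 and 339 TPM in wild-type and mutant cells), as were Zfp42 (361 and 257 TPM) and Lin28a (18.4 and 10.4 TPM), while Tdgf1 (421 and 516 TPM) and Esrrb (247 and 299 TPM) were called higher. The part of these marker differences in the results on mitotic genes was not tested. Fibroblast markers, as from feeder cells, summed to 4.74 to 7.34 TPM in wild-type and 5.60 to 6.68 TPM in mutant libraries, with Thy1 and Pdgfrb the only 2 of 9 at 1 TPM or more and with Postn and Dcn at 0. Primitive endoderm markers, 0 of 8 at 1 TPM, summed to 0.37 to 1.32 TPM in wild-type and 0.62 to 1.68 TPM in mutant libraries. In such bulk RNA, a change in the share of cells in mitosis and a change in mitotic RNA per cell cannot be told apart. Nothing says that sets or libraries came from separate cultures, so the p-values rest on a spread that may be technical.

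Among the genes of sister separation, securin and a shugoshin differed in opposite directions. Pttg1 (ENSMUSG00000020415.16, mm10 chromosome 11, 43420250 to 43426251, minus strand) encodes securin, the inhibitor and chaperone of separase. It measured 86.5 and 87.7 TPM in wild-type set 1 and 91.7 and 90.8 TPM in wild-type set 2. In the mutant libraries its lowest, median and highest values were 121, 132 and 145 TPM. Every mutant library lay above every wild-type library, and the 3 mutant set means were 137, 124 and 136 TPM. The log2 fold change was 0.56 ± 0.07 (SE), with an adjusted p of 0.00751 in limma.

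Sgo2a (ENSMUSG00000026039.9, chromosome 1, 57995971 to 58025899, plus strand) encodes shugoshin 2, a protector of centromeric cohesin. Wild-type libraries gave 43.2 and 42.1 TPM in set 1 and 42.1 and 42.5 TPM in set 2. The mutant libraries ran from 31.7 to 37.3 TPM with a median of 33.8 TPM, all below the wild-type values. At a log2 fold change of -0.31 ± 0.08 its adjusted p in limma, 0.0445, was close to the threshold, and the call was lost in 16 of 27 alternatives. After GC correction the change of Sgo2a was -0.15 (limma adjusted p 0.188). Exons of Kctd18 on the opposite strand, at 16.7 TPM on average, overlap 35.0% of its exonic bases, and the labels and notes at hand do not state whether counting used strand.

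The other 5 separation genes were not called. Sgo1, the mitotic shugoshin, averaged 35.4 ± 1.15 TPM (SD, n = 2 wild-type sets) and 36.7 ± 3.61 TPM (SD, n = 3 mutant sets). Espl1, which encodes separase itself, averaged 69.6 ± 6.57 and 72.7 ± 11.8 TPM. Cdc20, the APC/C activator, averaged 134 ± 7.83 and 140 ± 5.40 TPM. Ube2c, the ubiquitin-conjugating enzyme of the APC/C, averaged 314 ± 21.7 and 292 ± 7.40 TPM, and Cdca5, which encodes the cohesin stabiliser sororin, 44.0 ± 1.16 and 40.9 ± 0.984 TPM. For Cdca5 all mutant libraries lay below all wild-type libraries, at a log2 difference of -0.10 and an adjusted p of 0.353 in limma.

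Condensin I was the group with 2 genes higher. Condensin I is a ring of the ATPases SMC2 and SMC4 closed by the subunits NCAPH, NCAPD2 and NCAPG. Ncaph (ENSMUSG00000034906.15, chromosome 2, 127103809 to 127133954, minus strand), the kleisin that bridges the ATPases, measured 63.0 and 54.9 TPM in wild-type set 1 and 60.4 and 60.2 TPM in wild-type set 2. The mutant libraries ran from 78.5 to 84.8 TPM with a median of 83.1 TPM. All 6 lay above all 4 wild-type libraries, and the difference was 0.46 ± 0.07 on the log2 scale (adjusted p 0.0105, limma).

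Ncapd2 (ENSMUSG00000038252.13, chromosome 6, 125168007 to 125191701, minus strand), a HEAT-repeat subunit, measured 141 and 133 TPM in wild-type set 1 and 137 and 140 TPM in wild-type set 2. Its mutant libraries ran from 180 to 194 TPM with a median of 186 TPM, again with no overlap. The log2 fold change was 0.43 ± 0.06 and the limma adjusted p was 0.00962. Of the small RNA genes within it, the most abundant by TPM, Scarna10, was listed at 3.63 TPM on average.

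Both calls were kept under each scaling tried, including the GC correction. The other condensin I genes were not called. Ncapg averaged 71.1 ± 2.36 TPM (SD, n = 2 sets) in wild-type and 69.8 ± 3.90 TPM (n = 3 sets) in mutant cells. Smc4 averaged 97.0 ± 0.813 and 93.3 ± 12.6 TPM, and Smc2 averaged 67.4 ± 5.82 and 56.8 ± 5.99 TPM, a log2 difference of -0.25 ± 0.11 with a limma adjusted p of 0.155. The signs of the small changes of Ncapg and Smc4 depended on scaling, with Ncapg at 0.01 under median-of-ratios rescaling and Smc4 at 0.02 under quantile scaling.

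The proportion of condensin I transcripts to each other was compared within each library. The ratio of Ncaph to Smc2 TPM was 0.762 to 0.976 in the wild-type libraries and 1.31 to 1.64 in the mutant libraries. The ratio of Ncapd2 to Smc4 was 1.33 to 1.48 in wild-type and 1.73 to 2.39 in mutant libraries. For both ratios every mutant library lay above every wild-type library. These pairs, with Pttg1 to Espl1 and Hmmr to Tpx2, were chosen after the values were seen, and no test of them is given. The ratio of securin to separase transcripts (Pttg1 to Espl1) was 1.16 to 1.49 in wild-type and 1.48 to 2.19 in mutant libraries and overlapped.

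The other genes of chromosome structure were not called. Top2a, the topoisomerase that untangles sister DNA, averaged 304 ± 1.37 TPM (n = 2 sets) in wild-type and 279 ± 15.5 TPM (n = 3 sets) in mutant cells. Mki67, which codes for the chromosome surface protein Ki-67, averaged 32.6 ± 3.21 and 31.0 ± 4.63 TPM.

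Spindle assembly and cytokinesis factors held 1 gene in each direction. Hmmr (ENSMUSG00000020330.16, chromosome 11, 40701395 to 40733422, minus strand) encodes a microtubule-binding protein that brings TPX2 to spindle poles. Its wild-type values were 57.2 and 54.7 TPM in set 1 and 53.0 and 52.9 TPM in set 2. In mutant libraries it ran from 65.5 to 79.2 TPM with a median of 70.4 TPM. Mutant and wild-type libraries did not overlap, and set 3 (79.1 TPM) was higher than mutant sets 1 and 2 (70.4 and 66.2 TPM). At a log2 fold change of 0.39 ± 0.09 the limma adjusted p was 0.0331, and the call was lost without mutant set 1 (0.0828) and without mutant set 3 (0.0726). The Hmmr to Tpx2 ratio was 0.627 to 0.647 in wild-type and 0.757 to 0.845 in mutant libraries.

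Ect2 (ENSMUSG00000027699.19, chromosome 3, 27097222 to 27153878, minus strand) encodes the guanine nucleotide exchange factor that activates RhoA at the cleavage furrow. It measured 131 and 140 TPM in wild-type set 1 and 118 and 117 TPM in wild-type set 2. The mutant libraries ran from 77.8 to 103 TPM with a median of 89.4 TPM, all below the wild-type libraries. The log2 fold change of -0.48 ± 0.11 was the most negative of the 46, with a limma adjusted p of 0.0300. The mutant sets differed, with means of 81.8, 89.0 and 101 TPM (limma adjusted p among mutant sets 0.0295), and for the wild-type sets that p was 0.128. Without mutant set 1 or mutant set 2 the adjusted p was 0.0806 or 0.0541.

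The other cytokinesis and spindle genes were not called. Tpx2, the spindle assembly factor that activates Aurora A, averaged 85.4 ± 1.79 TPM (n = 2 sets) and 89.8 ± 6.17 TPM (n = 3 sets). Prc1, the bundler of midzone microtubules, averaged 94.1 ± 0.131 and 90.8 ± 5.71 TPM, and Anln, the furrow scaffold anillin, 140 ± 12.5 and 125 ± 10.4 TPM.

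Among the 8 genes grouped as kinesins, 1 was lower and 7 were not called. Kif23 (ENSMUSG00000032254.10, chromosome 9, 61915905 to 61946774, minus strand) encodes MKLP1, the motor of centralspindlin, which bundles midzone microtubules. It measured 108 and 96.0 TPM in wild-type set 1 and 90.9 and 96.7 TPM in wild-type set 2. The mutant libraries ran from 71.0 to 83.7 TPM with a median of 78.8 TPM. No mutant library reached the lowest wild-type library, at a log2 fold change of -0.33 ± 0.09 (adjusted p 0.0393, limma). The call was lost in 15 of 27 alternatives, among them leaving out the library of 108 TPM (adjusted p 0.0519).

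Most other genes of the kinesin group had negative estimates that missed the threshold. Kif20a, whose product MKLP2 carries Aurora B to the midzone, averaged 91.8 ± 2.37 TPM (n = 2 sets) and 74.8 ± 5.87 TPM (n = 3 sets), a log2 difference of -0.29 with a limma adjusted p of 0.0573. Exons of Cdc23 on the other strand, at 77.9 TPM on average, overlap 29.3% of the exonic bases of Kif20a. Kif2c, the microtubule depolymerase MCAK, averaged 62.5 ± 0.905 and 53.2 ± 2.12 TPM, with an adjusted p of 0.0732. Both had all mutant libraries below all wild-type libraries, and both were called in a fit of all 10 libraries where sets formed a random block, at adjusted p of 0.00477 and 0.0192. In that fit the genes higher were 4 and lower 6, and 26.6% of all genes tested were called. Kif22, a chromokinesin, was the only gene of this group with a positive estimate, at 95.5 ± 0.944 and 110 ± 4.08 TPM (limma adjusted p 0.0877). Estimates for Kif18a, Kif20b, Kif11 and Kif4 lay between -0.18 and -0.09. The count of 7 negative of 8 in this group also held under median-of-ratios and quantile scaling. After GC correction it was 5 of 8, with Kif11 and Kif20b turned positive. Kinesins placed in other groups had positive estimates: Cenpe at 0.34, Kif18b at 0.40 (called higher), Kif15 at 0.14, Kif14 at 0.035 and Kifc1 at 0.02. The count of negative estimates thus depends on which kinesins were grouped.

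The checkpoint genes included 1 that was lower. Mad2l1 (ENSMUSG00000029910.14, chromosome 6, 66535390 to 66547220, plus strand) encodes MAD2, which binds CDC20 in the inhibitory complex. It measured 94.4 and 93.1 TPM in wild-type set 1 and 96.0 and 94.6 TPM in wild-type set 2. Mutant libraries ran from 70.0 to 78.8 TPM with a median of 76.5 TPM, well apart from the wild-type values. The log2 fold change was -0.32 ± 0.07 and the limma adjusted p 0.0267, lost without mutant set 1 (0.0682) and without mutant set 3 (0.0621). After GC correction the change of Mad2l1 was -0.18 (limma adjusted p 0.122), and the call was lost in 9 of 27 alternatives. Its partners in the checkpoint were not called. Bub3 averaged 73.4 ± 1.57 TPM (n = 2 sets) and 72.7 ± 3.90 TPM (n = 3 sets), Bub1b, which encodes BUBR1, 99.1 ± 0.0601 and 101 ± 7.54 TPM, and Bub1, the kinetochore kinase, 94.5 ± 6.26 and 102 ± 6.31 TPM.

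No mitotic kinase, no chromosomal passenger gene and no centromere or kinetochore gene of the 46 was called. Of the 5 kinases, Plk1, the Polo-like kinase, had the smallest p. It measured 71.5 and 71.6 TPM in wild-type set 1 and 78.5 and 75.9 TPM in set 2, and ran from 76.5 to 88.9 TPM with a median of 84.2 TPM in the mutant libraries. The groups overlapped, at a log2 fold change of 0.17 ± 0.08 (adjusted p 0.163, limma). Aurka and Aurkb, the Aurora kinases of spindle poles and centromeres, Ttk, the checkpoint kinase MPS1, and Nek2, a centrosome kinase, had estimates from -0.19 (Nek2) to -0.04 (Aurka).

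Incenp had the smallest p of the 3 passenger genes, which anchor Aurora B at the inner centromere. Its wild-type values were 63.1 and 66.1 TPM in set 1 and 65.9 and 72.5 TPM in set 2, and its mutant values ran from 71.1 to 82.9 TPM with a median of 74.0 TPM. Mutant and wild-type values overlapped through the second library of wild-type set 2, at a log2 fold change of 0.17 ± 0.08 (adjusted p 0.179, limma). Birc5, which encodes survivin, and Cdca8, which encodes borealin, had estimates of -0.04 and 0.09.

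Nuf2, a subunit of the NDC80 complex that grips microtubules, had the smallest p of the 7 centromere and kinetochore genes. It measured 35.4 and 34.4 TPM in wild-type set 1 and 33.6 and 34.0 TPM in set 2, and 27.4 to 32.6 TPM with a median of 31.0 TPM in the mutant libraries. These libraries did not overlap, at a log2 fold change of -0.17 ± 0.09 (adjusted p 0.218, limma). The other subunits Ndc80, Spc24 and Spc25 had estimates of -0.003, 0.12 and -0.02, and Cenpa, the centromeric histone, 0.01. Cenpf, a large corona protein, stood at -0.10. Cenpe, the kinetochore motor, had the widest interval of all 46, from -0.09 to 0.77, and its mutant set means were 18.5, 20.1 and 28.7 TPM.

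**Figure D3:**
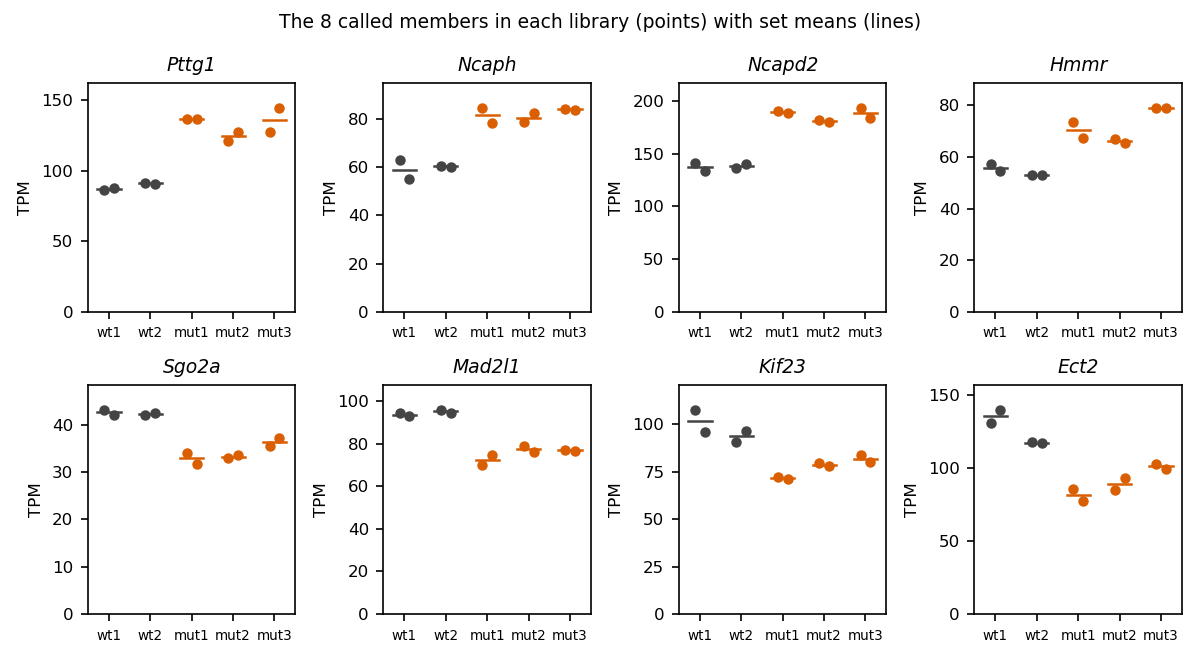
TPM (vertical axis, from 0) of the 8 called mitotic genes in each of the 10 libraries (points) by set (horizontal axis; wt, wild type; mut, mutant), with the mean of the 2 libraries of each set as a line. In each of the 8 panels the mutant and wild-type points do not overlap, for example at 121 TPM or more against 91.7 TPM or less for Pttg1.

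Both directions of change included genes with and without the promoter letters. Hmmr and Ncapd2, both higher, and Ect2 and Kif23, both lower, held CHR and CCAAT letters in their windows. Pttg1 and Ncaph, both higher, and Mad2l1, lower, held neither, and Sgo2a held CCAAT alone. That a window lacks a match says only that these letters are not in it. The window of Pttg1 (chr11:43425932-43426231) lay wholly inside the GENCODE coordinates of the gene, so sequence before its GENCODE start was not scanned. The window of Mad2l1 (chr6:66534971-66535270) ended before its GENCODE start at 66535390, so bases next to that start were not scanned. The 150 bases before the listed start are shown for 4 called genes, 1 of each kind in each direction, and for Mki67, which was not called and holds both; all are RefSeq sequence on GRCm38.p6, read 5′ to 3′ along the strand of the gene, with CHR letters and CCAAT (or its reverse, ATTGG) in capitals. Of the CHR letters, those of Hmmr and Kif23 lie past the start and are in the 30-base stretches given above.
Hmmr, higher (chr11:40733438-40733587, minus strand): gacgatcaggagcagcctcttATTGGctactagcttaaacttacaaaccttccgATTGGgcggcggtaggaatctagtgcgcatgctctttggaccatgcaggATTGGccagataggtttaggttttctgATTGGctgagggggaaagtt
Ncaph, higher (chr2:127133955-127134104, minus strand): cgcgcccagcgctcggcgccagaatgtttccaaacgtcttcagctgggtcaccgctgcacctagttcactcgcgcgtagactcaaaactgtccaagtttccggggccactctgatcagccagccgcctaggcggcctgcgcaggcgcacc
Kif23, lower (chr9:61946800-61946949, minus strand): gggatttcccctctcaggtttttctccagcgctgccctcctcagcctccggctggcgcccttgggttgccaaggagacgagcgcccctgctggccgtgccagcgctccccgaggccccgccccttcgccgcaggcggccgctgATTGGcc
Mad2l1, lower (chr6:66535071-66535220, plus strand): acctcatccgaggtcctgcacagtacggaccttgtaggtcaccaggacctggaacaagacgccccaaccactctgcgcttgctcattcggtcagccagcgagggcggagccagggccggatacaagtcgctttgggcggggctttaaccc
Mki67, not called (chr7:135716380-135716529, minus strand): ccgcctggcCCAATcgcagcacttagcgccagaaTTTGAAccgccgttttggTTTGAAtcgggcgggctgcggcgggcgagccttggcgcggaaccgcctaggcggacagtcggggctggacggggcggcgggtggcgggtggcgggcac

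The mutant sets differed among themselves in 17 of the 46 genes, and set 3 was usually the highest. These were Ttk, Bub1, Bub1b, Sgo1, Cenpe, Cenpf, Spc25, Kif20a, Kif20b, Kif18a, Hmmr, Anln, Ect2, Mki67, Top2a, Smc2 and Smc4. The test was a limma F test among the 3 mutant sets in a fit of 5 sets over 10 libraries, which measures differences against the spread between the 2 libraries of a set, and it called 19.6% of all genes tested. Set 3 had the highest mean for 15 of the 17 genes (88.2%), against 41.0% of all genes called by this test, and for 32 of the 46 (69.6%), against 43.8% of all genes tested. Mutant set 1 had the lowest mean for 29 of the 46 genes (63.0%). The matching share of all genes is not given here. Over all genes tested the median difference from wild type was also lowest in set 1 (-0.063, against -0.047 in set 2 and 0.00 in set 3). Between the 2 wild-type sets the same fit called 0 of the 46 genes, beside 2.75% of all genes, with 8 of 46 and 2597 of 12797 at an unadjusted p under 0.05.

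Cenpe showed the widest gap between mutant sets. It measured 18.5 and 18.04 TPM in wild-type set 1 and 16.2 and 16.2 TPM in wild-type set 2. In the mutant it measured 19.6 and 17.4 TPM in set 1, 21.2 and 18.9 TPM in set 2 and 27.0 and 30.4 TPM in set 3. Mutant set 1 overlapped the wild-type libraries, set 2 lay just above them and set 3 was farthest from them (limma adjusted p among mutant sets 0.00644). Cenpf and Mki67 stood below the wild-type mean in mutant set 1 (log2 differences of -0.36 and -0.29) and above it in set 3 (0.18 and 0.13). Neither of these differences from wild type was tested by set.

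As a group, the 46 genes followed the same order of sets. Their median difference from the wild-type mean was -0.10 in mutant set 1, -0.075 in set 2 and 0.05 in set 3 (log2 scale), beside -0.06, -0.05 and 0.00 for all genes tested. In set 1, 14 genes lay above and 32 below the wild-type mean, and in set 3, 27 lay above and 19 below. The summed TPM of the 46 genes ran from 3779 in a library of mutant set 1 to 4182 in one of set 3, with the wild-type libraries between 3941 and 4019. The count of 17 varied with the sets kept. Without mutant set 3 the remaining mutant sets differed in 3 genes, without mutant set 1 in 11 and without mutant set 2 in 9. In fits with sets or libraries left out the power changes for every gene, and the share of all genes called is not given here. The part of set 3 in these shifts was not tested. Leaving out a single library of set 3 gave 5 or 4 genes, a library of mutant set 2 gave 9 in either case, and a library of wild-type set 1 gave 10 in either case.

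**Figure D4:**
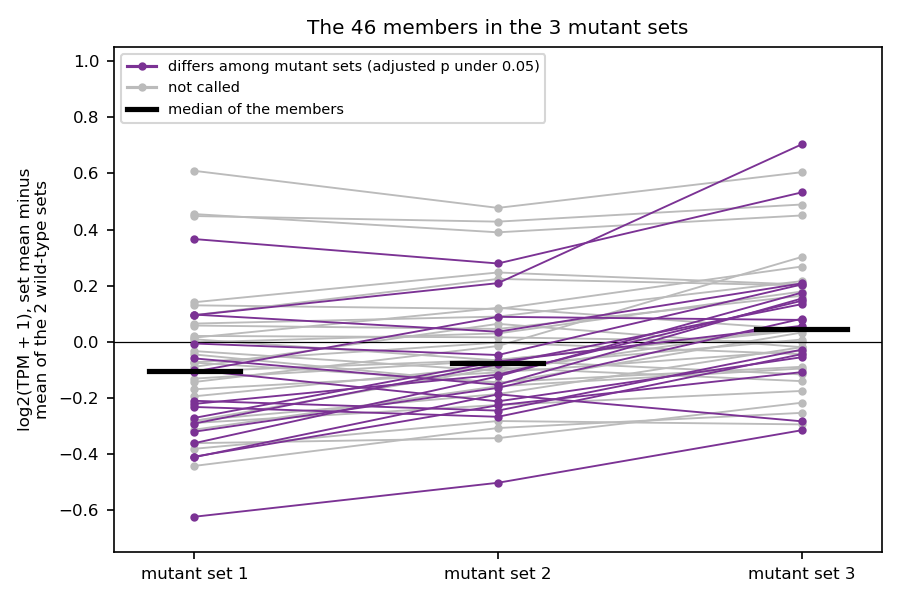
Mean log2(TPM + 1) of each of the 46 mitotic genes in the 3 mutant sets (horizontal axis) minus the mean of the 2 wild-type sets (vertical axis), 1 line a gene, with the median as a black bar. The 17 genes that differed among the mutant sets are coloured, and the median moves from -0.10 in set 1 to 0.05 in set 3.

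Transcript GC content varied with these differences. Over the 46 genes, the log2 fold change and GC content of the transcripts had a Pearson r of 0.32, and over 12785 genes tested r was 0.21; the points share libraries and are no replicates. With all genes split by GC content into 5 bins of equal size, from lowest to highest, their median log2 fold change was -0.14, -0.10, -0.04, 0.03 and 0.08, and 20 of the 46 mitotic genes lay in the lowest bin. The 4 genes called higher had a median GC content of 47.8% and the 4 called lower 41.3%. With log2 values corrected for GC content in each library, Ect2 was the 1 gene lower, at -0.34, while Bub1 joined the genes higher at 0.26 with a limma adjusted p of 0.0479. Pttg1, Ncaph, Ncapd2 and Hmmr remained called under that correction.

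Among the mitotic genes, GC content also went with the differences among mutant sets. The 17 genes that differed had a median GC content of 42.2% and a median longest transcript of 4316 bases, against 50.2% and 3449 bases for the other 29. In the lowest bin of GC content 14 of 20 mitotic genes differed among mutant sets, beside 20.6% of all genes of that bin. After GC correction 9 mitotic genes differed among mutant sets. The share of all genes called in that corrected fit is not given here, so the drop cannot be set against that of genes at large. The part of GC content or transcript length in these differences was not tested further.

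**Figure D5:**
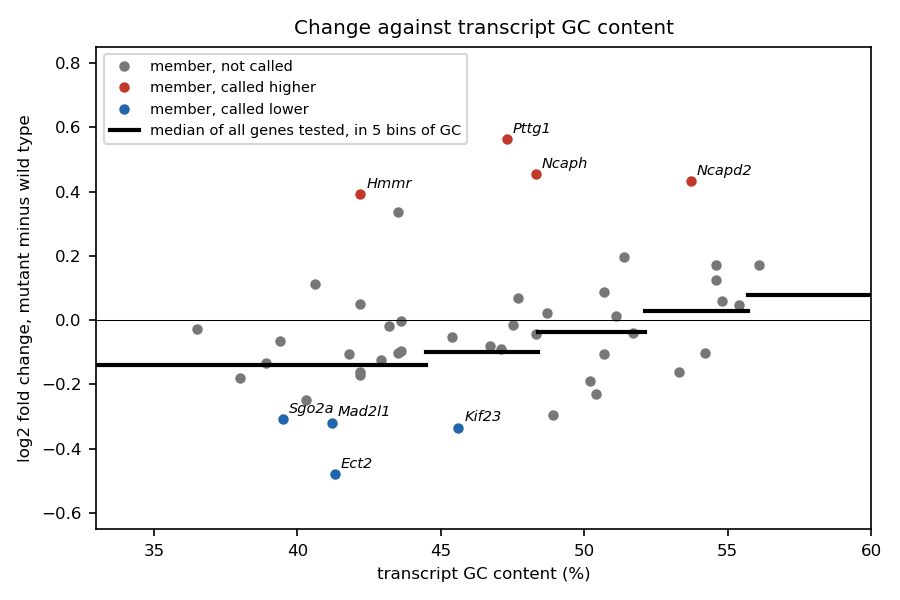
Log2 fold change of the 46 mitotic genes (vertical axis, mutant minus wild type) against the GC content of their transcripts in percent (horizontal axis), with the medians of all genes tested in 5 bins of GC content as black lines; the outer bins extend past the axis. Medians of all genes run from -0.14 in the lowest to 0.08 in the highest bin, and 3 of the 4 genes called lower lie in the lowest bin.

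The other genes of the mitotic apparatus were described in the same way. Of 80 further mitotic genes, 5 were higher and 5 lower by the same test (12.5%), with a median log2 fold change of 0.02. Of all genes tested 17.5% were called, 6.97% higher and 10.5% lower. Among 17 genes of the APC/C and its partners 4 were lower and 0 higher: Anapc10, a substrate-binding subunit, at -0.53 ± 0.12 (limma adjusted p 0.0304), Ube2s, its chain-elongating enzyme, at -0.44 ± 0.09 (0.0237), Fbxo5, its inhibitor EMI1, at -0.39 ± 0.09 (0.0283) and Anapc5 at -0.35 ± 0.07 (0.0204). None of 19 constitutive centromere genes was called. Of 17 outer kinetochore genes 1 was higher, Ska2, a microtubule-coupling subunit, at 0.40 ± 0.10, and of 5 condensin II and related genes 1 was higher, the condensin II kleisin Ncaph2, at 0.36 ± 0.08. Of 22 spindle pole and cytokinesis genes 3 were higher (Pimreg at 0.59, the kinesin Kif18b at 0.40 and Ckap2 at 0.31) and 1 was lower, the spindle factor Dlgap5, at -0.50 ± 0.11.

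The number of these genes called higher depended on scaling. The 80 genes had 10 higher and 5 lower under median-of-ratios rescaling, 10 and 4 under quantile scaling and 10 and 5 after GC correction. These scalings called 17.1%, 16.5% and 15.9% of all genes tested, with no split by direction given here. The median log2 fold change of all genes tested was -0.001, -0.001 and -0.004 under them, against -0.038 in the unaltered fit. Of the APC/C genes, Anapc1 and Anapc7 were called higher under median-of-ratios and quantile scaling, and Anapc1 after GC correction, while Anapc5 and Fbxo5 were called lower under all 3. Of the centromere genes, Cenpt was called higher under the first 2 of these, and Cenpk and Cenpq after GC correction. Without wild-type set 1, wild-type set 2 or mutant set 1, none of the 80 was called. Without mutant set 2 there were 6 higher and 3 lower, and without mutant set 3, 1 higher and 4 lower. The fits without mutant set 1, 2 and 3 called 5.11%, 18.7% and 7.19% of all genes tested.

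Among 23 regulators of mitotic entry and of these promoters 1 was higher and 4 were lower (21.7%), beside 17.5% of all genes tested. Of 11 cyclins and kinases of the G2 to M transition 3 were lower: Cks1b, a CDK subunit, at -0.42 ± 0.07 (limma adjusted p 0.0162), Wee1, the kinase that restrains CDK1, at -0.31 ± 0.08 (0.0477), and Cdk1 itself at -0.27 ± 0.07 (0.0362). Of 12 genes for the DREAM, MYB-MuvB, FOXM1 and NF-Y factors, Mybl2, which encodes B-MYB, was higher at 0.23 ± 0.06 (0.0416), and Nfyc, a subunit of NF-Y, was lower at -0.49 ± 0.12 (0.0364). Cdk1 and Wee1 were not called under median-of-ratios rescaling, which gave 1 higher and 2 lower. Quantile scaling left only Cks1b lower and Mybl2 higher, and GC correction left Cks1b and Nfyc lower, with Pkmyt1, and none higher. These scalings called 17.1%, 16.5% and 15.9% of all genes tested, in that order. The fits without mutant set 1, 2 and 3 called 5.11%, 18.7% and 7.19%. None of the 23 was called without wild-type set 1, wild-type set 2 or mutant set 1, 3 were lower without mutant set 2 (Cdk1, Cks1b and Nfyc) and 1 without mutant set 3 (Cks1b), with Mybl2 called in none of these fits.

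Genes of DNA replication, the phase before mitosis, are set beside the mitotic genes. Of 35 such genes 14 were lower and 0 higher (40.0%), beside 10.5% lower and 6.97% higher of all genes tested. Their median was -0.26, with Gins1, a subunit of the replicative helicase, at -0.51. Cdc6, a loader of that helicase, stood at -0.50 and the origin protein Orc2 at -0.48. Median-of-ratios rescaling gave 11 lower and 0 higher, and GC correction 11 lower and 1 higher. The matching shares of all genes called, in either direction, were 17.1% and 15.9%, and 16.5% under quantile scaling. Under quantile scaling 8 were lower, and without wild-type set 1 or wild-type set 2 there were 0. In the fits without wild-type set 1 and without wild-type set 2, the median of the 35 genes was -0.28 and -0.23. Without mutant set 1 or mutant set 3 the count of genes lower was 3, beside 5.11% and 7.19% of all genes called. Without mutant set 2 it was 17, beside 18.7%. The 46 mitotic genes had 4 lower and 4 higher with a median of -0.05, and the difference between the lists was not tested.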

How the data were processed

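Poly(A) RNA of 10 E14 libraries was captured on beads and made into libraries with a VAHTS Universal kit, per the labels' protocols. The authors deposited 1 table of TPM values for 55401 genes. Trim Galore, STAR, RSEM, DESeq2 and build mm10 are listed in the submitters' processing notes; for versions, settings, annotation and strand mode, "not given in the sources used here" applies. TPM are scaled by length and to 1 fixed total, so more of an abundant transcript means lower values for the rest; reads per gene and counting error are unknown. All 10 columns were matched by name.

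Positions, GC content and exon overlaps came from GENCODE M21 (55141 identifiers matched), promoters from RefSeq. The 46 genes and all gene lists were chosen with earlier results of these data known. Values were log2(TPM + 1); genes with mean TPM of at least 1 were kept (12797). Each set's libraries were averaged. The 3 mutant sets were set against the 2 wild-type sets with limma 3.58.1 in R 4.3.3 (two-sided, eBayes with trend, 4.01 prior degrees of freedom), and p were adjusted by Benjamini-Hochberg across every gene tested, threshold 0.05. A second fit took 5 sets over 10 libraries. DESeq2 was not run here. Every called gene, and the gene of smallest p in each role without a call, is given with its libraries; of the other lists up to 3 called genes per sublist are named by size of change, and Anapc5 and genes called only under another scaling were added after their values were seen. Alternatives were other pseudocounts, filters, scalings, a GC correction (lowess, span 0.3), single libraries with and without blocks, no variance trend, a threshold of 0.01, and leaving out each set and library; for the comparisons between sets (all but the filter at 5 TPM) and for the other lists they were chosen after seeing the data. Plots used matplotlib 3.10.9.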

Additional observations from a re-analysis of the deposited data

Results flagged for a closer look

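In 92 groups (46 genes in 2 genotypes), 2 held a library far from the rest by Dixon's 95% criterion, which chance alone meets in about 1 of 20 groups. Ndc80 stood at 42.03 TPM in the first library of wild-type set 1, against 38.14 to 38.76 TPM in the other wild-type libraries. Kif2c stood at 48.66 TPM in the second library of mutant set 1, against 53.23 to 55.57 TPM in the other mutant libraries.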

How the results depend on the processing

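No called gene changed direction in 27 alternatives; Pttg1 kept its call in 25, Ncapd2 in 24, Ncaph in 23, Ect2 in 19, Mad2l1 and Hmmr in 18, Kif23 in 12 and Sgo2a in 11. Genes called lower (4) numbered 0 with no filter on low values, 0 without variance trend, 0 at a threshold of 0.01, 2 under quantile scaling, 1 after GC correction and 11 with 10 libraries and no block. Genes called higher (4) numbered 2 at a threshold of 0.01 and 7 with 10 libraries and no block. Of all genes tested (17.5%), 12.8% were called without variance trend, 2.45% at 0.01 and 41.2% with no block. The share was 16.5% under quantile scaling and 15.9% after GC correction. With no filter, every gene with any TPM above 0 was tested, and 3.08% of that larger number were called. Leaving out a set or a library gave 0 to 4 genes higher and 0 to 4 lower, with 0.328% to 18.7% of all genes called. The median log2 fold change was 0.038 under quantile scaling. With the library number as a replicate block 7 genes were higher and 9 lower (39.1% of all genes called), and with the set number as a replicate block 1 was higher and 0 lower (4.46%). No strong pairing by number was seen. Deviations correlated at -0.164 and -0.0904 between same-numbered sets, and at -0.0761 to 0.116 between same-numbered libraries. The deviations of 2 wild-type sets mirror each other, as do those of 2 libraries of a set, so these values cannot exclude pairing. Genes that differed among mutant sets (17) numbered 9 with no filter, 9 after GC correction, 8 without variance trend, and 3 to 18 when a set or library was left out. Between wild-type sets 1 gene was called under median-of-ratios rescaling, against 0. For comparisons between sets, the share of all genes called is given only for the unaltered fit. It was 19.6% among mutant sets and 2.75% between wild-type sets. The cause of these shifts was not tested. The depth of the libraries is unknown, so it could not be weighed.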
